A study of Mus musculus with 12 samples.

Results

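The intracellular FGF homologous factors (FHFs) *Fgf11*, *Fgf12*, *Fgf13* and *Fgf14* were chosen as a gene family by their symbols and are 4 of the 770 genes counted by the nCounter Mouse PanCancer Pathways panel. The panel was run on RNA from 12 fresh frozen mouse samples, each of 1 lesion, eye or tumor from a single animal. The 5 *RBS* lesions were E18.5 eyes of *Rax-creERT2::Ctnnb1(ex3)Fl/+SmoM2Fl/+* embryos whose mothers received tamoxifen at E8.5. In these embryos the Cre driver stabilizes beta-Catenin and switches on a constitutively active Smoothened in *Rax*-positive cells, which activates Wnt and Shh signaling together. The 4 control eyes came from E18.5 embryos of the genotype *Ctnnb1(ex3)Fl/+SmoM2Fl/+*, which carry both floxed alleles without Cre. The 3 Shh-MBs were hindbrain tumors of 14-day-old *hGFAP-cre::SmoM2Fl/+* mice and carry the *SmoM2* allele but not the *Ctnnb1* allele. *RBS* lesions and control eyes differ in Cre and in tissue makeup, since lesional tissue largely replaces the regular eye. Whether the control embryos of these RNA samples were exposed to tamoxifen is not stated. For its protein measurements the paper used littermate control eyes, grouped by when tamoxifen was given. *Rax* is not active in retinal precursors alone, and Shh-MBs differ from eyes in tissue, age, Cre driver and genotype at the same time. The comparisons asked how the eyes with both pathways active differ from regular eyes and from tumors with active Shh signaling alone.

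FHFs belong to the FGF family by sequence, but they lack a classical secretion signal and stay inside the cell, whereas most other FGFs are secreted and act on FGF receptors. FHFs bind the cytoplasmic tail of voltage-gated sodium channels and set how readily these channels inactivate, and they also bind the kinase scaffold IB2, the product of *Mapk8ip2*. They are best known from neurons and heart muscle. FGF14 gathers at the axon initial segment and is mutated in a form of spinocerebellar ataxia, and FGF13 has also been described as a microtubule-binding protein of growing neurons.

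In *RBS* lesions *Fgf14* and *Fgf13* rose, *Fgf12* fell slightly and *Fgf11* did not pass the test, in comparison to control eyes. *Fgf14* and *Fgf13* were also higher in *RBS* lesions than in Shh-MBs, and all 5 lesions lay above all eyes and tumors for both genes. Of the 4 members, 2 were called higher in *RBS* lesions in the comparison with control eyes, next to 33.0% of all panel genes, and 1 was called lower, next to 18.2%. The groups of 2 members did not overlap in this comparison, next to 43.4% of all genes. Against Shh-MBs 3 members were called higher in *RBS* lesions and none lower, next to 48.1% and 12.7% of all genes, and 2 members did not overlap, next to 59.9%. Between Shh-MBs and control eyes no member was called higher and 2 were called lower, next to 9.61% and 31.4% of all genes, and 2 members did not overlap, next to 48.2%. Calls come from limma on log2(signal + 1) with a Benjamini-Hochberg adjusted *p* under 0.05 over the 770 genes, and all differences below are on that log2 scale. Many genes of the panel changed, so the counts for 4 members do not set the FHFs apart from the panel. The comparisons share samples and are given side by side.

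**Figure D1:**
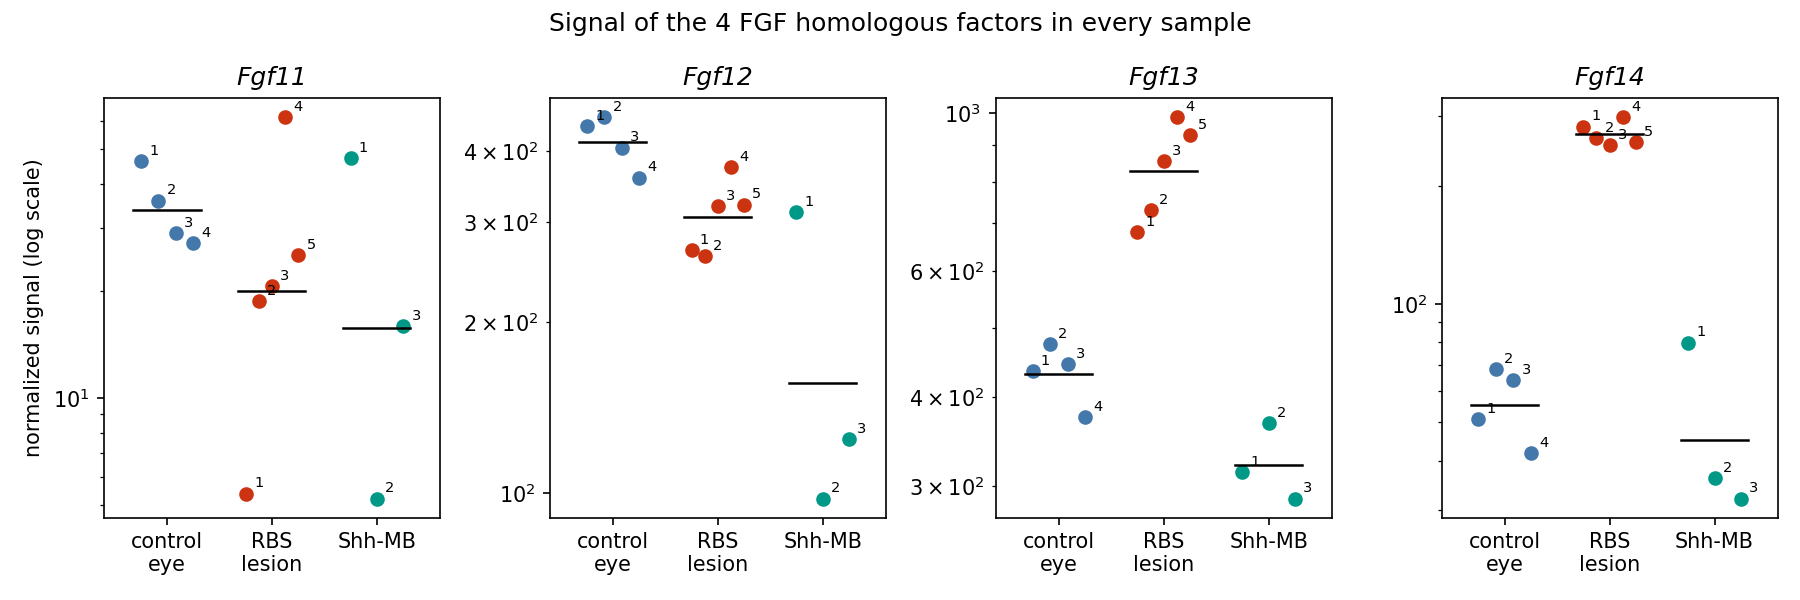
Normalized signal (log axis) of *Fgf11*, *Fgf12*, *Fgf13* and *Fgf14* in the 4 control eyes, 5 *RBS* lesions and 3 Shh-MBs; points are samples, numbers are replicate numbers and black lines are means of the log2 values. *Fgf14* ran from 254 to 299 in *RBS* lesions and stayed below 80 in every other sample, while *Fgf11* groups overlap.

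The depth, inferred from the spacing of low values, was 335348 to 716963 counts above background per sample. A single count was worth 0.810 to 1.64 units of signal. From 26.9 to 29.7% of a lesion's signal came from its 3 brightest genes, as did 42.8 to 50.9% in control eyes and 50.0 to 51.8% in Shh-MBs. Of the marker lists for retina and lens no gene is on the panel, and those for the cerebellar granule lineage, glia and muscle are present with 1 gene each, so the labelled tissues could not be checked against their defining markers. *Zic2*, the granule lineage gene, was higher in Shh-MBs than in control eyes by 1.87 (SE 0.179). The summed signal of 9 neuron genes was 967 to 1076 in control eyes and 2900 to 3826 in *RBS* lesions. It was 1127 and 1152 in Shh-MBs 3 and 2 but 1623 in Shh-MB 1, which stands apart within its group. *Id4*, the glial gene, was at 559 in Shh-MB 1 and at 105 and 240 in Shh-MBs 2 and 3. Results of the members and correlations that rest on Shh-MB 1 are therefore given with and without it. Counts and differences of the listed genes are given with all 3 tumors only. In these bulk samples fewer cells of a type and less RNA per cell cannot be told apart.

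The promoters below are shown because *Fgf14* and *Fgf13* rose together and *Fgf12* did not. They are the 250 bases upstream of annotated RefSeq start sites (GRCm38.p6), all on the minus strand, written 5′ to 3′. The table used held 10 such windows for the members, 4 each for *Fgf12* and *Fgf13* and 1 each for *Fgf11* and *Fgf14*, and which start site gives rise to the RNA that the panel probe counts is not known here. Capitals mark matches on either strand to 3 short motifs, the Gli core GACCACCC, the Tcf/Lef core CTTTGAT and the E-box CAGCTG, which reads the same on both strands and does not overlap the others. For *Fgf12* and *Fgf13* the window with the most CpG dinucleotides is shown, and for *Fgf13* also the one that holds a motif.
Fgf14, chr14:124192547-124192796: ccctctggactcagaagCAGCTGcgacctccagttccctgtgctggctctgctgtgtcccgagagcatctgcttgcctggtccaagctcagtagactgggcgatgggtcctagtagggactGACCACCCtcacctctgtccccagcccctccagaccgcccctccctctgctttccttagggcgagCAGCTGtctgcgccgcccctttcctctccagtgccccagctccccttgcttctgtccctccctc
Fgf13, chrX:59585573-59585822: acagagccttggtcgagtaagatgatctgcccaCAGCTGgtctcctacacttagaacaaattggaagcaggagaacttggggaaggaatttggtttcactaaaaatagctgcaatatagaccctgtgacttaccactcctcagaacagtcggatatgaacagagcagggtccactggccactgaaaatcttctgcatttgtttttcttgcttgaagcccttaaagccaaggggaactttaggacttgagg
Fgf13, chrX:59567349-59567598: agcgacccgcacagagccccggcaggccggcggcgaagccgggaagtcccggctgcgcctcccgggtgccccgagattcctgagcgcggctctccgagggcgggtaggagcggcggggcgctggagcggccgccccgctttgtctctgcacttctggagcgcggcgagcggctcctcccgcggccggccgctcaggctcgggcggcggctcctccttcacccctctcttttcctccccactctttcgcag
Fgf12, chr16:28564496-28564745: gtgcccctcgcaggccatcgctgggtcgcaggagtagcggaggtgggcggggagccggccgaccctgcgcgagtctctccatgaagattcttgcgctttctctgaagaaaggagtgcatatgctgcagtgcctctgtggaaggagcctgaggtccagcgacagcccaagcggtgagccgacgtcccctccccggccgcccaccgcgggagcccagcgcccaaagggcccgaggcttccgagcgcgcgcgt

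The *Fgf14* window holds the Gli letters once, starting 129 bases before the start site, and the E-box letters at 233 and 64 bases before it. Of all 32851 windows of this length in the table, 0.703% hold the Gli letters, 3.21% the Tcf/Lef letters and 13% this E-box. Among the other 9 windows of the members, 1 of *Fgf13* and the *Fgf11* window hold 1 E-box each, and none holds the Gli or Tcf/Lef letters. The *Fgf12* window with 25 CpG dinucleotides and the *Fgf13* window with 33 have GC contents of 68.8% and 74.8%, whereas the *Fgf14* window has 7 CpG dinucleotides at 64.0% GC. The median window of the table has 6 CpG dinucleotides and 52.4% GC. A match is a run of letters and was not tested as a binding site.

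*Fgf14*, whose product supports sodium channel function at the axon initial segment, showed the largest change of the 4 genes. Its signal in *RBS* lesions 1 to 5 was 283, 264, 254, 299 and 258. In control eyes 1 to 4 it was 51.0, 68.3, 64.1 and 41.7. In Shh-MBs 1 to 3 it was 79.8, 36.1 and 32.0. Every *RBS* lesion was thus at more than 3 times the signal of the highest other sample, and control eyes and Shh-MBs overlapped. The mean was 272 ± 18.8 (SD, n = 5) in *RBS* lesions, 56.3 ± 12.2 (n = 4) in control eyes and 49.3 ± 26.5 (n = 3) in Shh-MBs. The coefficient of variation among *RBS* lesions was 6.90%, the smallest of any member in any group.

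The difference of *Fgf14* between *RBS* lesions and control eyes was 2.27 (SE 0.147, 95% confidence interval 1.94 to 2.61), a 4.84-fold rise, with an adjusted *p* of 5.14e-06 in limma. It ranked 16 among the 770 differences of this comparison, ordered from the largest rise. Against Shh-MBs the difference was 2.56 (SE 0.275, 5.88-fold), with an adjusted *p* of 9.47e-05 in limma. The latter difference was smaller under other scalings, at 1.71 with median centring and 1.68 with quantile normalization, and stayed called (adjusted *p* = 0.000193 and 0.000171). Exact permutation tests gave two-sided *p*-values of 0.00794 and 0.0179, the smallest that 5 against 4 and 5 against 3 samples allow. Between Shh-MBs and control eyes the difference was -0.28 (SE 0.347) with a confidence interval of -1.11 to 0.55, which leaves room for a change of about 2-fold in the downward direction. The adjusted *p* was 0.565, and the sign of this last difference turned under other scalings (0.38 after centring on the median). Without Shh-MB 1 it was -0.68 (adjusted *p* = 0.0576). *Fgf14* was therefore highest in *RBS* lesions, and the order of control eyes and Shh-MBs below them was not resolved.

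*Fgf13*, which encodes a sodium channel partner that also binds microtubules, rose as well, by less. Its signal in *RBS* lesions 1 to 5 was 680, 731, 856, 986 and 931. In control eyes 1 to 4 it was 435, 475, 444 and 375. In Shh-MBs 1 to 3 it was 314, 368 and 288. The 3 groups did not overlap with each other, with *RBS* lesions on top and Shh-MBs at the bottom, although control eye 4 and Shh-MB 2 were only a few units apart. The means were 837 ± 130 (SD, n = 5), 432 ± 41.8 (n = 4) and 323 ± 40.6 (n = 3). *RBS* lesions exceeded control eyes by 0.94 (SE 0.133, confidence interval 0.64 to 1.24), a 1.92-fold rise with an adjusted *p* of 0.000386 in limma. Against Shh-MBs the difference was 1.36 (SE 0.157, 2.57-fold, adjusted *p* = 0.000136 in limma). The exact permutation *p*-values were again the smallest possible, 0.00794 and 0.0179.

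Shh-MBs were below control eyes in *Fgf13* by 0.42 (SE 0.131, 1.34-fold lower, adjusted *p* = 0.0416 in limma), with an exact permutation *p* of 0.0571. This step in the order depended on the scaling: the difference was -0.0871 with quantile normalization and turned to 0.25 when each sample was centred on its median. The call was also lost without any single one of Shh-MBs 1 and 3 and control eyes 1, 2 and 3, with adjusted *p*-values from 0.0856 to 0.125. The rise in *RBS* lesions did not depend on the scaling in this way. It ranged from 0.69 to 0.94 against control eyes and from 0.52 to 1.37 against Shh-MBs over the 11 alternative settings.

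*Fgf12*, the third sodium channel partner, did not follow *Fgf13* and *Fgf14*. Its signal was 443, 460, 406 and 359 in control eyes 1 to 4. In *RBS* lesions 1 to 5 it was 268, 262, 320, 375 and 322. In Shh-MBs 1 to 3 it was 313, 98.0 and 124. *RBS* lesion 4 reached into the range of the control eyes, and Shh-MB 1 into the range of the *RBS* lesions, while no Shh-MB reached a control eye. The means were 417 ± 44.4 (SD, n = 4) in control eyes, 309 ± 46.3 (n = 5) in *RBS* lesions and 178 ± 117 (n = 3) in Shh-MBs. *RBS* lesions were 1.35-fold below control eyes, a difference of -0.44 (SE 0.131, confidence interval -0.73 to -0.14, adjusted *p* = 0.0208 in limma), with an exact permutation *p* of 0.0238. All 11 alternative settings kept this direction, with differences from -0.67 to -0.43, but the call was lost without control eye 1 (adjusted *p* = 0.0570) or control eye 2 (0.0604), and with all 12 samples in 1 fit (0.234).

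Against Shh-MBs *Fgf12* was higher in *RBS* lesions by 0.97 (SE 0.352, adjusted *p* = 0.0424 in limma), and the exact permutation *p* was 0.0536. The value turned on Shh-MB 1. Without this tumor the difference was 1.47 with an adjusted *p* of 0.000357, whereas leaving out any other of the 8 samples lost the call (adjusted *p* from 0.0573 to 0.158). After centring on the median only 0.12 of the difference was left. Shh-MBs were below control eyes by 1.40 (SE 0.387, 2.64-fold lower, adjusted *p* = 0.0265 in limma), with the smallest possible exact permutation *p*, 0.0286. Without Shh-MB 1 this difference was -1.90, with an adjusted *p* of 0.000361. Under every scaling tried *Fgf12* stayed lower in Shh-MBs than in control eyes, with adjusted *p*-values of 0.0598 to 0.0808 in these scalings. The call was also lost without Shh-MB 2 or 3 or without control eye 1, 2 or 3 (0.0579 to 0.0860).

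*Fgf11*, the least studied of the FHFs, varied more within the lesions and tumors than between the groups. Its signal was 46.3, 35.8, 29.0 and 27.2 in control eyes 1 to 4. In *RBS* lesions 1 to 5 it was 5.39, 18.7, 20.6, 61.5 and 25.2. In Shh-MBs 1 to 3 it was 47.3, 5.22 and 15.9. The highest *RBS* lesion was at 11.4 times the lowest, the highest Shh-MB at 9.06 times the lowest and the highest control eye at 1.70 times the lowest, and the ranges of all groups overlapped. The value of *RBS* lesion 1 rests on 3.28 counts above background, that of *RBS* lesion 4 on 51.0. The means were 34.6 ± 8.65 (SD, n = 4), 26.3 ± 21.0 (n = 5) and 22.8 ± 21.9 (n = 3).

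None of the comparisons of *Fgf11* passed the test. *RBS* lesions differed from control eyes by -0.70 (SE 0.548, adjusted *p* = 0.325 in limma), with a confidence interval of -1.95 to 0.54. It was -0.27 without *RBS* lesion 1 and -1.09 (adjusted *p* = 0.0692) without *RBS* lesion 4. The difference was 0.31 (SE 0.825, adjusted *p* = 0.763) against Shh-MBs, with a sign that turned under several settings. For Shh-MBs against control eyes it was -1.02 (SE 0.651, adjusted *p* = 0.269). Without Shh-MB 1 the last difference was -1.76 with an adjusted *p* of 0.0235. The exact permutation *p*-values were 0.310, 0.661 and 0.229.

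**Figure D2:**
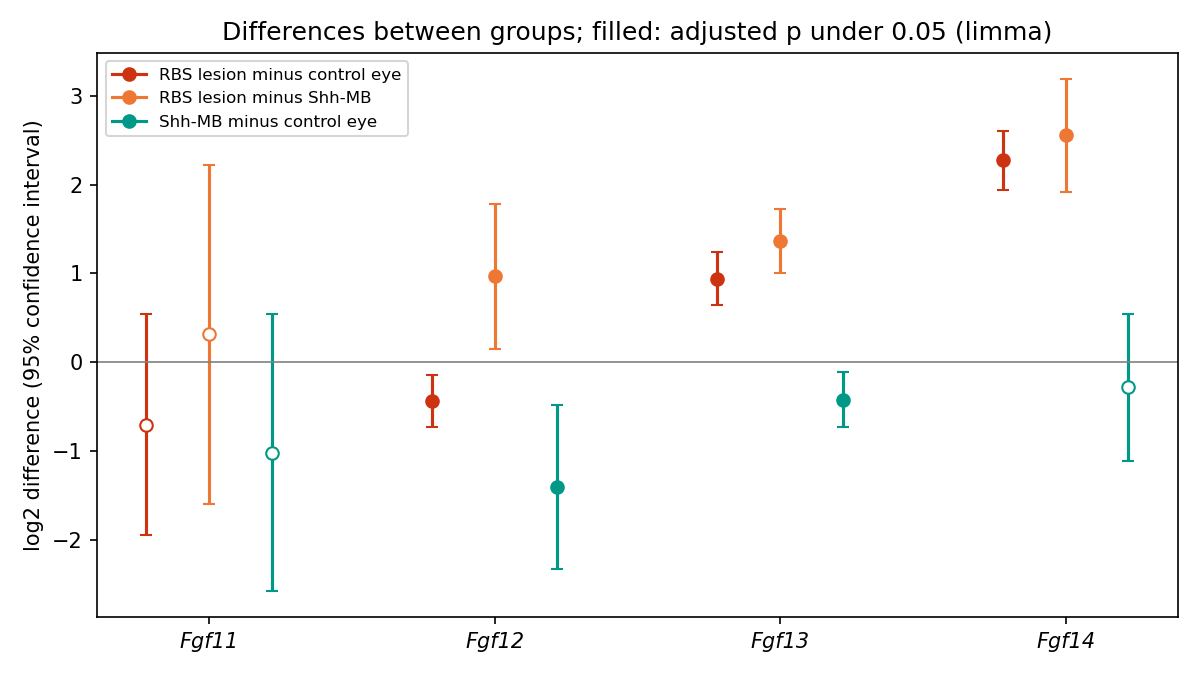
Differences of log2(signal + 1) for the 4 FHF genes in the 3 comparisons, with 95% confidence intervals from limma; filled points have an adjusted *p* under 0.05. The intervals of *Fgf13* and *Fgf14* in both comparisons of *RBS* lesions lie above 0, and those of *Fgf11* cross 0.

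A factor applied to a whole sample cancels in the ratio of 2 of its genes, apart from the 1 added to each signal, which matters for the low *Fgf11*. The log2 ratio of *Fgf12* to *Fgf13* was -0.05 ± 0.0642 (SD, n = 4) in control eyes and -1.43 ± 0.0732 (n = 5) in *RBS* lesions, so it fell by 1.38 while its spread stayed small in both groups. As different probes capture each gene, only the change of such a ratio is read here, not its level. The ratio of *Fgf12* to *Fgf14* fell by 2.71 (6.54-fold) and that of *Fgf13* to *Fgf14* by 1.33 (2.52-fold) from control eyes to *RBS* lesions. None of these 3 ratios overlapped between the groups (exact permutation *p* = 0.00794 each, adjusted *p* = 0.0459 over 18 ratio tests). *Fgf14* and *Fgf13* both rose in the fits above, and their ratio shows that they changed by unequal amounts. The ratios of *Fgf11* to *Fgf13* and to *Fgf14* were also lower in *RBS* lesions, by 1.65 and 2.98 on the log2 scale (exact permutation *p* = 0.0159, adjusted *p* = 0.0459). The ratio of *Fgf11* to *Fgf12* differed by -0.27 (exact permutation *p* = 0.643).

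Against Shh-MBs the ratios of *Fgf12* and *Fgf13* to *Fgf14* were lower in *RBS* lesions, by 1.59 and 1.19 on the log2 scale (exact permutation *p* = 0.0179, adjusted *p* = 0.0459). The ratio of *Fgf12* to *Fgf13* was -1.04 ± 0.957 (SD, n = 3) in Shh-MBs, where it was that of a control eye in Shh-MB 1 and close to or beyond that of *RBS* lesions in the other tumors. The ratio of *Fgf12* to *Fgf14* was lower in Shh-MBs than in control eyes by 1.12 on the log2 scale, without overlap (exact permutation *p* = 0.0286, adjusted *p* = 0.0643). The ratio of *Fgf11* to *Fgf14* was lower in *RBS* lesions than in the tumors by 2.24 without passing (adjusted *p* = 0.107), but passed with a pseudocount of 5 or with values under 20 set to 20 (0.0402 in both). In all, 7 of 18 ratio tests passed at an adjusted *p* of 0.0459. Leaving out any sample of the groups compared lifts these 7 to between 0.0535 and 0.161 and turns the direction of none of them. Fewer samples allow fewer splits. The highest value, 0.161, is that of *Fgf11* to *Fgf13* against control eyes, where the other passing ratios reached at most 0.0643.

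**Figure D3:**
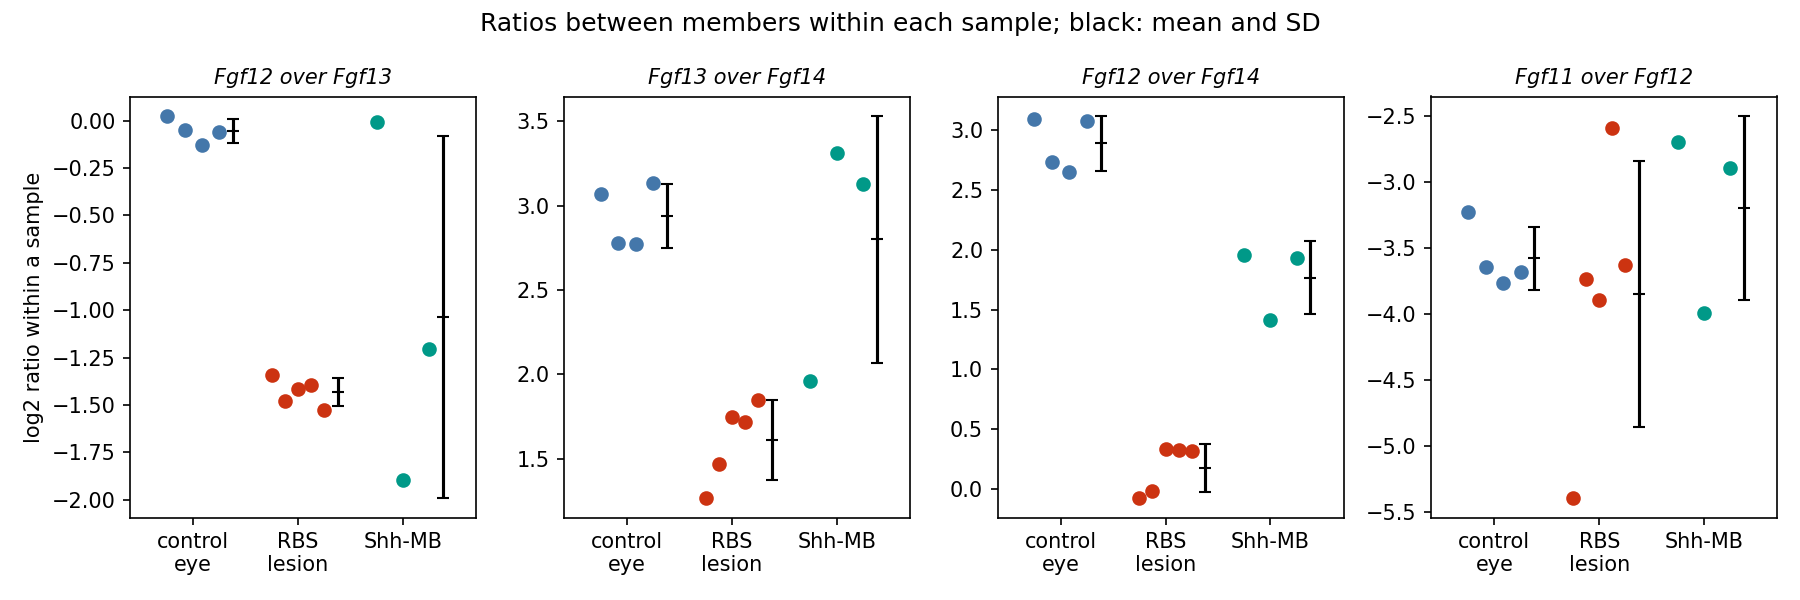
Log2 ratio of 2 FHF genes within each sample for 4 of the 6 pairs; points are samples, black bars are the mean and SD of each group. The ratio of *Fgf12* to *Fgf13* averages -0.05 in control eyes and -1.43 in *RBS* lesions without overlap, and spreads over both ranges in Shh-MBs.

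*RBS* lesion 4 was the highest lesion and control eye 4 the lowest control eye for all 4 genes, and Shh-MB 1 was the highest tumor for *Fgf11*, *Fgf12* and *Fgf14*. Over the 12 samples the log2 values of *Fgf13* and *Fgf14* correlated with r = 0.92, but with 0.19 after each group was centred on its own mean. Without Shh-MB 1 these values were 0.96 and 0.49, and with any other sample left out the centred value was 0.02 to 0.38. *Fgf12* and *Fgf14* correlated with r = 0.32 over all samples, or 0.10 without Shh-MB 2 and 0.13 without Shh-MB 3. After centring their r was 0.85, which rested on Shh-MB 1, as it was 0.32 without this tumor and 0.85 to 0.87 with any other sample left out. *Fgf11* and *Fgf12* correlated with 0.72 and, after centring, 0.80, and without Shh-MB 1 with 0.74 and 0.82. Without Shh-MB 2 these values fell to 0.54 and 0.70, and without *RBS* lesion 1 they rose to 0.84 and 0.89. These correlations describe 12 samples that fall into 3 groups and share the scaling of each sample. Among the tumors Shh-MB 1 also had the highest sums of the neuron, blood and immune, surface epithelium, FGF receptor, secreted FGF and partner lists. Its sums of mesenchyme and proliferating cell genes were the lowest of the tumors, and its median log2 signal was the highest.

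The panel genes most like each member over the 12 samples were ranked by Pearson's r among genes with a mean of at least log2(20). For *Fgf13* they were *Prkar2b*, a regulatory subunit of protein kinase A (r = 0.99, or 0.92 after centring each group), *Mapt*, the microtubule-associated protein tau (0.98, or 0.70), and *Hdac6*, a tubulin deacetylase (0.97, or 0.54). For *Fgf14* they were *Tspan7*, a tetraspanin (0.98, or 0.78), *Ppp2cb*, a catalytic subunit of protein phosphatase 2A (0.98, or 0.72), and the adaptor *Grb2* (0.97, or 0.63). *Fgf12* was most like the integrin subunit *Itga3* (0.92, or 0.95), *Mnat1* of the CDK-activating kinase (0.91, or 0.88) and the MAP kinase kinase *Map2k1* (0.91, or 0.85). *Fgf11* was most like *Ddit4*, a stress-induced inhibitor of mTOR signaling (0.76, or 0.73), *Fgf12* (0.72, or 0.80) and *Irak2*, a kinase of interleukin-1 signaling (0.68, or 0.62). Ranking by Spearman's rho kept 2, 0, 2 and 0 of the 3 genes for *Fgf11* to *Fgf14*, and ranking after each sample was centred on its median kept 2, 1, 1 and 1. Several of the centred values also rested on Shh-MB 1. Without it they were 0.68, 0.56 and 0.47 for *Itga3*, *Mnat1* and *Map2k1* with *Fgf12*, and 0.22, 0.33 and 0.11 for *Tspan7*, *Ppp2cb* and *Grb2* with *Fgf14*. For *Irak2* with *Fgf11* the centred value without this tumor was 0.40, and for the genes named beside *Fgf13* it was 0.54 to 0.93. After each sample was centred on its median, *Ppp2cb* had r = 0.24 with *Fgf14*, so its likeness depends on the scaling.

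Of 24 genes listed as known or possible partners and targets of FHFs, 8 are on the panel, and none of them is a sodium channel. Whether FHFs bind their products was not tested. The list holds *Mapt* and *Cacna1e*, which are also listed as neuron genes, and *Calml3*, also listed for surface epithelium. In *RBS* lesions 7 of the 8 rose and none fell against control eyes, next to 33.0% and 18.2% of all genes, with a median difference of 0.91 next to 0.17 for all genes. *Mapk8ip2*, the scaffold that FHFs bind, was at 654 ± 45.2 (SD, n = 5) in *RBS* lesions and 309 ± 33.0 (n = 4) in control eyes, a difference of 1.08 (SE 0.0992, adjusted *p* = 3.44e-05 in limma). Its relative *Mapk8ip1* rose by 0.72 (adjusted *p* = 0.000326). *Cacna1e*, a neuronal calcium channel, rose by 4.32 and *Mapt* by 1.70. Against Shh-MBs 5 of the 8 were higher in *RBS* lesions, next to 48.1% of all genes, among them *Mapk8ip2* by 0.42 (adjusted *p* = 0.0411) and *Mapt* by 2.72, whereas *Mapk8ip1* differed by -0.06 (adjusted *p* = 0.663). These values depended on the scaling: with median centring *Mapk8ip2* turned to -0.43 (adjusted *p* = 0.0191), *Mapk8ip1* was called lower at -0.91, and 3 of the 8 genes were higher and 2 lower. *Calml3*, a calmodulin-like gene of epithelia, did not exceed the floor of the scale in any of the 3 Shh-MBs, and its fold is left out. In Shh-MBs against control eyes 3 of the 8 were higher and 2 lower, next to 9.61% of all genes higher and 31.4% lower. *Cacna1e*, *Mapk8ip1* and *Mapk8ip2* were higher, by 2.91, 0.79 and 0.66, *Mapt* was lower by 1.02, and *Calml3* was also called lower. With median centring 3 were higher and 1 lower, and *Mapt* was not called. Under the scaling as deposited *Mapk8ip2* was thus higher than in control eyes in both lesions and tumors, while *Fgf14* was higher in the lesions and not resolved in the tumors.

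The 18 secreted FGFs, all on the panel, moved in both directions. In *RBS* lesions 2 rose, 3 fell and 13 did not pass against control eyes, next to 33.0% of all genes higher and 18.2% lower, with a median difference of -0.29. With median centring none rose and 5 fell, and with quantile normalization none rose and 4 fell. *Fgf3* went from 113 ± 13.1 in control eyes (SD, n = 4) to 3.00 ± 2.17 in *RBS* lesions (n = 5), with 2 lesions at the lowest value, and *Fgf15* from 968 ± 129 to 133 ± 33.0. *Fgf17* and *Fgf7* rose by 1.03 and 0.99, and neither passed with median centring or quantile normalization. *Fgf17* was at the lowest value in 3 of 4 control eyes, so its difference depends on the floor. Among the FGF receptors *Fgfr3* and *Fgfr1* rose by 1.86 and 0.84, and *Fgfr2* and *Fgfr4* did not pass. Against Shh-MBs 6 of 18 secreted FGFs were higher and 3 lower in *RBS* lesions, next to 48.1% and 12.7% of all genes, but with median centring 4 were higher and 5 lower, and with quantile normalization 3 were higher and 3 lower. *Fgf1* was lower by 2.36. *Fgf18*, at 66.0 ± 7.62 in lesions and 6.72 ± 5.79 in Shh-MBs (SD, n = 5 and 3), was called higher with 1 tumor at the lowest value, and *Fgf5*, at 3.86 ± 3.85 and 26.0 ± 9.75, was called lower with 3 of 5 lesions at the lowest value, so their log2 differences depend on the floor and are left out. *Fgf15* sat at the floor in 2 of the 3 Shh-MBs. *Fgfr3* and *Fgfr1* were higher by 2.31 and 1.58, and *Fgfr4* was lower by 3.01. Shh-MBs against control eyes had 2 secreted FGFs higher, *Fgf1* and *Fgf5*, by 1.88 and 1.41, and 4 lower, among them *Fgf3* and *Fgf15*, next to 9.61% and 31.4% of all genes, and with median centring 4 were higher and 3 lower. *Fgfr4* was higher there by 2.81, and *Fgfr2* and *Fgfr1* were lower by 1.31 and 0.74, which did not pass with median centring.

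**Figure D4:**
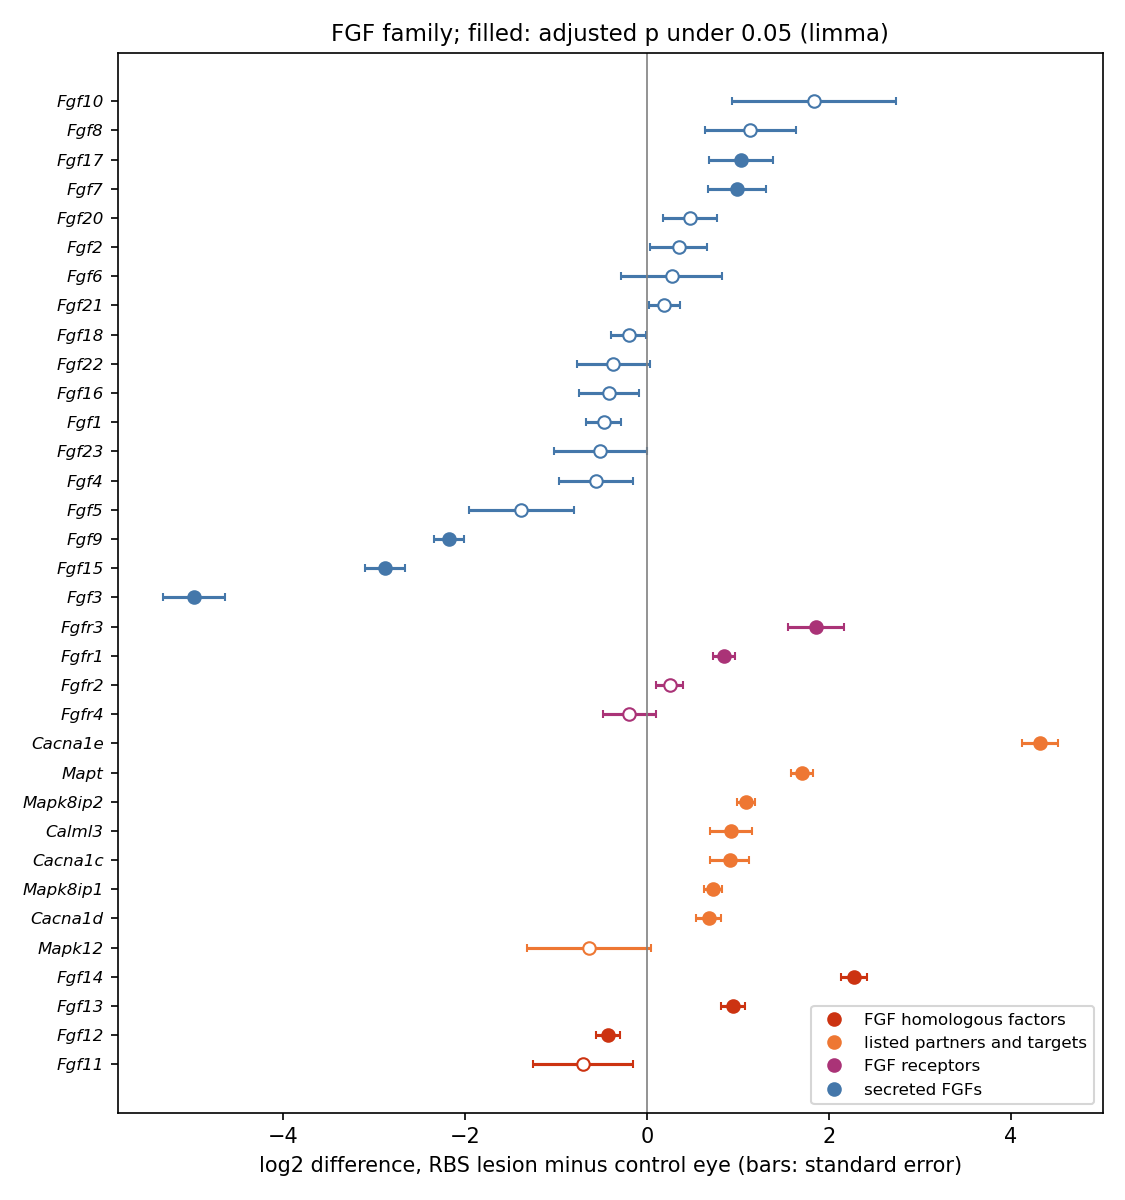
Difference of log2(signal + 1) between 5 *RBS* lesions and 4 control eyes for the 4 FHF genes, 8 listed partners and targets, 4 FGF receptors and 18 secreted FGFs, with standard errors from limma; filled points have an adjusted *p* under 0.05. *Fgf14* (2.27) lies to the right of all secreted FGFs, and *Fgf3*, with 2 lesions at the lowest value, lies far to the left.

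Markers of other cell types also differed between lesions and eyes, where 33.0% of all genes were called higher and 18.2% lower. Of 9 neuron genes, 8 rose in *RBS* lesions against control eyes and none fell, with a median of 1.72. *Mapt* and *Cacna1e* are on this list and on that of the partners, and *Calml3* is on the lists of the partners and the surface epithelium. The defining neuron markers *Tubb3*, *Map2* and *Rbfox3* are not on the panel. *Baiap3*, a regulator of secretory vesicles, rose by 4.58, with 3 of 4 control eyes at the lowest value, and *Grin2a* was not called (0.10). *Id4* rose by 3.39. Of 10 genes of proliferating cells 9 fell and none rose, with a median of -1.12 and sums of 5272 to 6474 in *RBS* lesions against 11548 to 14448 in control eyes. Surface epithelium genes rose in 4 of 7 cases and blood and immune genes in 3 of 10, and 2 of 7 mesenchyme genes fell. With median centring 4 of 7 mesenchyme genes fell, and with quantile normalization 1 of 10 blood and immune genes rose. The neuron sums of *RBS* lesions lay above those of control eyes without overlap, as did *Fgf13* and *Fgf14*. The same held for the sums of the partner, FGF receptor, surface epithelium and blood and immune lists, and for *Id4*. Sums of proliferating cell genes and of secreted FGFs lay below without overlap, whereas those of mesenchyme genes overlapped. Of all single genes 43.4% did not overlap in this comparison, so the pattern was not particular to the neuron genes.

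Against Shh-MBs 4 of 9 neuron genes were higher and 1 lower in *RBS* lesions, shares near the 48.1% and 12.7% of all genes. *Mapt* was higher by 2.72 and *Gria3* lower by 0.73, and *Baiap3* was at 60.7 in lesions and 2.32 in Shh-MBs, with 1 tumor at the lowest value. In the same comparison 6 of 7 mesenchyme genes and 6 of 7 surface epithelium genes were higher. The other mesenchyme gene, *Pdgfra*, was lower by 1.01, and 9 of 10 genes of proliferating cells were lower. In Shh-MBs against control eyes 9.61% of all genes were called higher and 31.4% lower. Of 9 neuron genes 5 were higher there, led by *Cacna1e* (2.91) and *Grin1* (1.90). Another, *Mapt*, was lower (-1.02, or -0.36 and not called with median centring). Of 7 mesenchyme genes 6 were lower, and *Pdgfra* was higher by 1.53. The part of cell composition in the differences of *Fgf12*, *Fgf13* and *Fgf14* was not tested.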

How the data were processed

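RNA was extracted from fresh frozen tissue and counted with the nCounter SPRINT Profiler, which reads color-coded probes without amplification. Normalization by the authors used nSolver with its Advanced Analysis module. The deposited values are linear normalized signal. Neighbouring low values are evenly spaced with an offset, from which a subtracted background and 1 factor per sample were inferred. The background setting is not given in the sources used here. Whole reads could therefore not be recovered, and values were analysed as log2(signal + 1) with no filter. Every column of values was used. Depth is the total signal divided by the step of a sample, and it does not include the subtracted background.

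Each pair of groups was fitted with limma 3.58.1 in R 4.3.3 (lmFit, eBayes, two-sided, Benjamini-Hochberg adjustment over 770 genes, threshold 0.05). The methods name a Welch-corrected test with permutations and adjusted Bonferroni correction. limma was used as the groups hold 3 to 5 samples, and a Welch test without the permutations is an alternative. Single members and within-sample ratios were compared by two-sided exact permutation tests. Replicates are separate animals. No pair of samples was identical, and replicates correlated with r of 0.965 to 0.987 over genes. The steps were tested on simulated data. Plots were made in Python 3.11.15 with matplotlib 3.10.9.

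The members, the gene lists and the motifs were chosen with earlier results of these data known. The lists were written from general knowledge, and 1 gene of the neuron list is not reported here and was left out of its counts and sums. Named genes were the members, the 3 genes most like each, the Mapk8ip genes, and the 2 largest rises and falls past the threshold in the lists of partners, secreted FGFs, receptors and neurons in each comparison. Other marker genes named beside them were chosen after their values were seen. Alternatives were the Welch test under Benjamini-Hochberg or step-down Bonferroni adjustment, limma with trend and robust settings, all 12 samples in 1 fit, median centring, quantile normalization, scaling to the total that leaves out the 3 brightest genes, a pseudocount of 5, values under 20 set to 20, a filter on genes whose mean was under log2(20), a replicate block, and leaving out each sample. Applying the scalings to the listed genes, and leaving out each sample from the correlations, were chosen after seeing the data. Promoter sequences are from RefSeq (GRCm38.p6), matched by symbol for all 4 members. Protein sequences were not used here.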

Additional observations from a re-analysis of the deposited data

How the results depend on the processing

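*Fgf13* and *Fgf14* kept their rise in *RBS* lesions under every setting in direction, and lost the call only with the Welch test and step-down Bonferroni adjustment. There the adjusted *p* was 0.104 and 0.247 against control eyes and 0.112 and 1 against Shh-MBs, at differences of 0.94, 2.27, 1.36 and 2.56. With each sample left out in turn, *Fgf13* ranged from 0.88 to 1.01 against control eyes and from 1.28 to 1.46 against Shh-MBs, and *Fgf14* from 2.14 to 2.37 and from 2.31 to 2.96. For Shh-MBs against control eyes *Fgf14* ranged from -0.68 to -0.0388.

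*Fgf12* against control eyes (-0.44) lost its call with step-down Bonferroni adjustment and with all 12 samples in 1 fit (adjusted *p* = 0.234). Without single samples it ranged from -0.51 to -0.38. *Fgf12* against Shh-MBs (0.97) lost its call with the Welch test under either adjustment (0.263 with Benjamini-Hochberg), at 0.12 with median centring, 0.32 with quantile normalization, 0.59 without the 3 most abundant genes in the total and 0.97 with values under 20 set to 20 (adjusted *p* = 0.0695), and ranged from 0.63 to 1.47 without single samples. In Shh-MBs against control eyes *Fgf12* (-1.40) and *Fgf13* (-0.42) lost their calls with the Welch test (0.203 and 0.0829 with Benjamini-Hochberg). The values were -0.74 and 0.25 with median centring, -0.98 and -0.0871 with quantile normalization, and -1.09 and -0.11 without the 3 most abundant genes, and ranged from -1.90 to -1.07 and from -0.52 to -0.34 without single samples. *Fgf14* turned to 0.38, 0.77 and 0.0242 under these 3 scalings in that comparison, and *Fgf11* to 0.16 with quantile normalization. *Fgf11* against Shh-MBs turned to -0.53, -0.99 and -0.0342 under the same scalings and to -0.0140 with values under 20 set to 20. Without single samples *Fgf11* ranged from -1.09 to -0.27 against control eyes, from -0.42 to 1.06 against Shh-MBs and, for Shh-MBs against control eyes, from -1.76 to -0.29. The cause was not tested.

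No label ties equal replicate numbers, and deviations of equal numbers correlated between -0.148 and 0.188 for *RBS* lesions and control eyes. The replicate block therefore only adds a check. With the replicate block *Fgf12* was at -0.45 (adjusted *p* = 0.109), 0.85 (0.163) and -1.47 (0.0758) in the 3 comparisons, *Fgf13* at -0.49 (0.0598) for Shh-MBs against control eyes, and *Fgf11* turned to -0.30 against Shh-MBs. Genes called went from 394 to 301, from 468 to 407 and from 316 to 230.

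With step-down Bonferroni adjustment 72, 80 and 36 genes were called. The median difference of all genes moved from 0.17 to -0.01 with median centring for *RBS* lesions against control eyes, from 0.53 to -0.32 against Shh-MBs and from -0.22 to 0.44 for Shh-MBs against control eyes. The share of called genes that were higher moved from 64.5 to 50.0%, from 79.1 to 36.2% and from 23.4 to 69.1%. Of the ratios, *Fgf11* to *Fgf12* turned to 0.0787 (*RBS* lesions minus control eyes) and *Fgf11* to *Fgf13* to 0.0773 (Shh-MBs minus control eyes) with values under 20 set to 20. Without single samples, *Fgf12* to *Fgf13* ranged from -0.83 to 0.12 for *RBS* lesions minus Shh-MBs and *Fgf13* to *Fgf14* from -0.39 to 0.28 for Shh-MBs minus control eyes, both turning without Shh-MB 1. *Fgf11* to *Fgf13* ranged from -1.36 to 0.23 in the latter comparison and turned without Shh-MB 2, and *Fgf11* to *Fgf12* from -0.58 to 0.12 for *RBS* lesions minus control eyes and turned without *RBS* lesion 1. None of these ratios passed the test in the main setting.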
